A study of Mus musculus with 3 samples.

Results

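The 9 genes described here act in membrane retrieval. They are 9 of the 32285 genes in the feature tables and were followed across the cell types of the mouse cochlea at 14 days (P14) and 28 days (P28) after birth. They were chosen by symbol: the dynamins *Dnm1*, *Dnm2* and *Dnm3*, the A-type endophilins *Sh3gl1*, *Sh3gl2* and *Sh3gl3*, the amphiphysins *Amph* and *Bin1*, and the phosphatase *Synj1*. All 9 were found in every library, with 5244 UMIs in the kept barcodes of the P14 library and 22430 and 19278 in those of P28 replicates 1 and 2. A UMI (unique molecular identifier) marks 1 captured RNA molecule, and it is counted at the 3′ end of the transcript, so a longer transcript is not counted more often. Differences in capture between the 3′ ends of different genes were not corrected.

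When a synaptic vesicle has fused, its membrane is taken back into the cell as a coated bud. Endophilins and amphiphysins bind and curve the membrane at the neck of the bud, dynamins are GTPases that assemble around the neck and cut it, and synaptojanin removes phosphates from the inositol lipids so that the coat can come off. Inner hair cells (IHCs) release glutamate at ribbon synapses onto spiral ganglion neurons (SGNs), whereas outer hair cells (OHCs) mainly amplify sound by changing their length.

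The series held 3 droplet libraries (10x Chromium, 3′ chemistry) from C57/B6 mice with no treatment named, 1 at P14 and 2 at P28. Each library pooled 14 cochleae of 7 mice of both sexes, so the variation between mice cannot be seen, and the 2 P28 libraries were the sole replicates of an age. They held 2513 to 18196 barcodes and 10125255 to 37530956 UMIs. Barcodes with 200 to 6000 genes and at most 15% mitochondrial UMIs were kept, 1662 at P14 and 5651 and 7065 at P28, with medians of 2037 to 2477 UMIs. Between 4 and 10 kept barcode sequences were shared by each pair of libraries. The cells were clustered without the 9 genes and named from marker genes. The name OHC-like was given to 276, 367 and 284 cells of P14 replicate 1, P28 replicate 1 and P28 replicate 2, IHC-like to 60, 113 and 76, and SGN-like to 334 and 296 at P28, while no P14 cluster was named SGN-like. The defining markers were checked: *Ocm*, an OHC calcium buffer, was at 17037 to 31539 CPM (UMIs of the gene scaled to 1000000 UMIs of the class in that library) in OHC-like cells and at 151 to 323 CPM in IHC-like cells, and *Otof*, the calcium sensor of IHC release, was at 2935 to 3328 CPM in IHC-like cells and at 70.3 to 492 CPM in OHC-like cells. The P14 IHC-like cells were shallow, with a median of 1025.5 UMIs against 9310 and 8007.5 at P28. All other kept barcodes are called other cells below. IHC-like cells held 12431.5, 10435 and 10644 CPM of the 7 IHC markers. They also held 3716, 7974 and 7001 CPM of 5 markers of inner phalangeal and border cells (IPhC/IB), against 16569, 13530 and 9043 CPM in other cells. Of 6 sulcus and Hensen's cell markers (ISC/HeC/OSC) they held 1188, 3069 and 2790 CPM, against 9401, 3046 and 2318 CPM. The part of such RNA in the IHC-like levels was not tested.

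The leading dynamin differed between the classes. *Dnm3* led in OHC-like cells, with 697 CPM in the P14 library and 757 and 734 CPM in P28 replicates 1 and 2. *Dnm1*, the dynamin of nerve terminals, led in IHC-like cells, with 511, 389 and 447 CPM, and in SGN-like cells, with 1280 and 1158 CPM. *Dnm2*, the dynamin of most tissues, stayed at 25.3 to 67.3 CPM in all 3 classes. OHC-like cells held 52.0, 72.7 and 54.7 CPM of *Dnm1*, and no OHC-like library overlapped an IHC-like one. IHC-like cells held 71.3, 6.19 and 28.6 CPM of *Dnm3*, which rest on 18, 6 and 17 UMIs. SGN-like cells were the one class high in both, with 480 and 546 CPM of *Dnm3* beside *Dnm1*.

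As a share of the 3 dynamins' UMIs, *Dnm3* made up 86.9%, 85.3% and 87.5% in OHC-like cells, with exact 95% binomial intervals between 83.7% and 89.3% that cover counting error only. *Dnm1* made up 78.7%, 86.1% and 87.2% in IHC-like cells. In SGN-like cells *Dnm1* made up 71.5% and 67.0% and *Dnm3* 26.8% and 31.6%. In other cells *Dnm2* made up 68.4%, 67.6% and 63.0%, within a dynamin total of 45.6 to 58.9 CPM against 802 to 888 CPM in OHC-like cells and 1729 to 1790 CPM in SGN-like cells. Shares of UMIs within a family say nothing of the total, so both are given.

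The leading endophilin differed between the classes too. *Sh3gl3*, which encodes endophilin A3, was at 751, 759 and 776 CPM in OHC-like cells, close to the level of *Dnm3* there. It was at 7.92, 10.3 and 15.1 CPM in IHC-like cells, on 2, 10 and 9 UMIs, and at 2.63 and 3.09 CPM in SGN-like cells. *Sh3gl2*, which encodes the endophilin A1 of nerve terminals, was at 919 and 1021 CPM in SGN-like cells, at 143, 140 and 148 CPM in IHC-like cells and at 27.9, 21.3 and 23.0 CPM in OHC-like cells. The OHC-like level of *Sh3gl2* was that of other cells, which held 22.2, 22.5 and 21.1 CPM. *Sh3gl1*, which encodes the broadly expressed endophilin A2, was highest in OHC-like cells (149, 193 and 150 CPM), lower in IHC-like cells (127, 85.6 and 72.3 CPM) and lowest in SGN-like cells (20.2 and 24.4 CPM).

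*Sh3gl3* made up 81.0%, 78.0% and 81.7% of the endophilin UMIs in OHC-like cells, and *Sh3gl2* made up 97.6% and 97.4% in SGN-like cells. IHC-like cells divided their endophilin UMIs between both other genes, and *Sh3gl2* made up 51.4%, 59.4% and 62.9% and *Sh3gl1* 45.7%, 36.2% and 30.7%. The summed level of the 3 endophilins was alike in OHC-like (928 to 974 CPM) and SGN-like cells (942 to 1049 CPM), whereas IHC-like cells held 235 to 277 CPM and other cells 67.5 to 94.1 CPM.

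**Figure D1:**
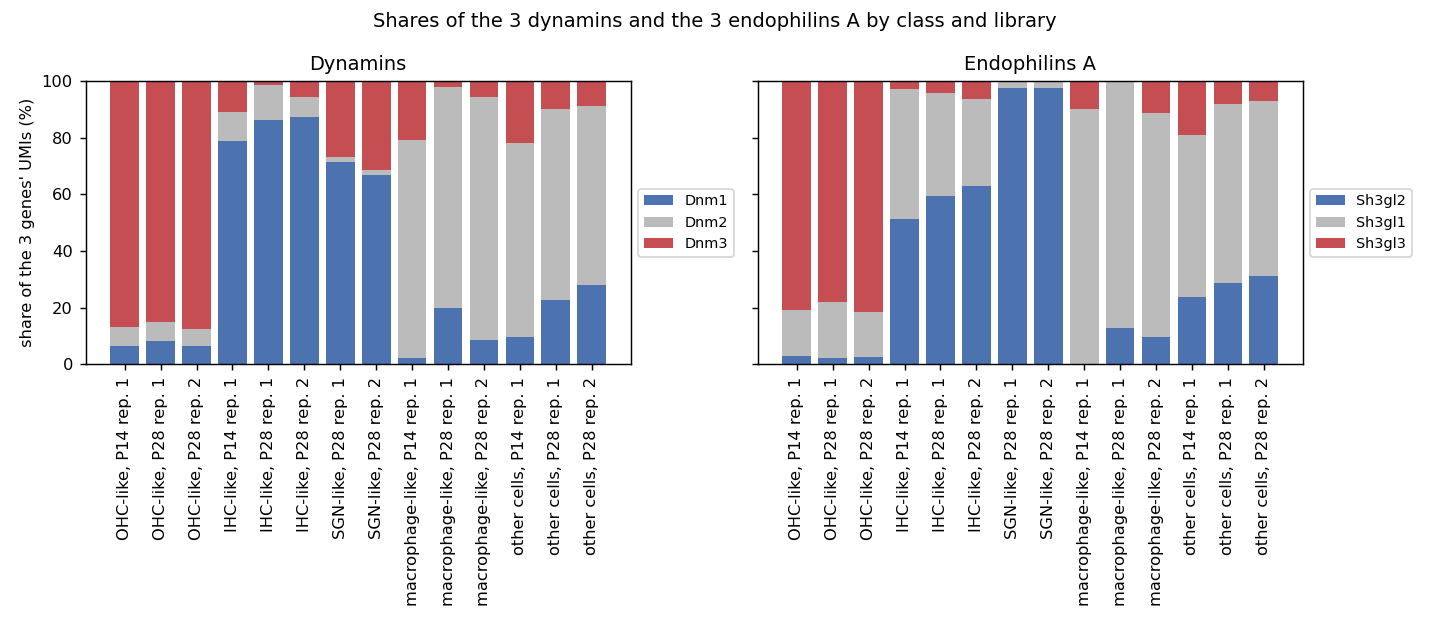
Share of UMIs (%, stacked bars) that each of the 3 dynamins (left) and each of the 3 A-type endophilins (right) took among the UMIs of its family, for each class and library. *Dnm3* and *Sh3gl3* fill most of the bars of OHC-like cells, *Dnm1* leads in IHC-like and SGN-like cells, *Sh3gl2* fills 97.6% and 97.4% of the SGN-like bars, and *Dnm2* and *Sh3gl1* lead in macrophage-like and other cells.

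The promoters of the 4 genes that divide the classes are printed because they led their families, *Dnm3* and *Sh3gl3* in OHC-like cells and *Dnm1* and *Sh3gl2* in SGN-like cells. Each runs from 250 bases before to 50 bases after an annotated transcript start (RefSeq, GRCm38.p6), on the strand of the gene. *Dnm3* lies at chr1:161982450-162478321 (minus strand), *Sh3gl3* at chr7:82173808-82307420 (plus), *Dnm1* at chr2:32308471-32353349 (minus) and *Sh3gl2* at chr4:85205456-85389380 (plus). The windows of *Sh3gl3*, *Dnm3* and *Dnm1* follow a transcript start inside the gene's outer bound. Of the 9 genes, 8 had an entry in the promoter table. Capitals mark matches, on either strand, to the letters GGGCGG (the core bound by SP1; CCGCCC on the other strand) and CAGCTG (an E-box, the same on both strands).
Dnm3, chr1:162477985-162478284, minus strand: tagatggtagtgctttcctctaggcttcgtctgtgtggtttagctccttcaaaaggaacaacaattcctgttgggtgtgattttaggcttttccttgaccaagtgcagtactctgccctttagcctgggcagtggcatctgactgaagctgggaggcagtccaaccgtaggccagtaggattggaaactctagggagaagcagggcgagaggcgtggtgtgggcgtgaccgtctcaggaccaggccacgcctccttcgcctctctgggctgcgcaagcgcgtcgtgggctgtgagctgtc
Sh3gl3, chr7:82174546-82174845, plus strand: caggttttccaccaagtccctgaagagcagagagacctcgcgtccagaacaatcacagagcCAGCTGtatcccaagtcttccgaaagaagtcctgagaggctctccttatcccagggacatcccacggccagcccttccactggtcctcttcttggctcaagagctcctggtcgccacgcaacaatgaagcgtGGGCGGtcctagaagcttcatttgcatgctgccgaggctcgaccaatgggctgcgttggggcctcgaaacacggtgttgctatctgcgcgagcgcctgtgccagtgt
Dnm1, chr2:32353280-32353579, minus strand: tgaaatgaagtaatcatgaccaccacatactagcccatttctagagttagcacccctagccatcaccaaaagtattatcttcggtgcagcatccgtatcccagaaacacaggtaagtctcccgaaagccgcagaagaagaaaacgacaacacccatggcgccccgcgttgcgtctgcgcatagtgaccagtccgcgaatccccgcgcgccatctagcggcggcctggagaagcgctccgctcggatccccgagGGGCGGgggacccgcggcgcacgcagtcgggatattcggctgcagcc
Sh3gl2, chr4:85205206-85205505, plus strand: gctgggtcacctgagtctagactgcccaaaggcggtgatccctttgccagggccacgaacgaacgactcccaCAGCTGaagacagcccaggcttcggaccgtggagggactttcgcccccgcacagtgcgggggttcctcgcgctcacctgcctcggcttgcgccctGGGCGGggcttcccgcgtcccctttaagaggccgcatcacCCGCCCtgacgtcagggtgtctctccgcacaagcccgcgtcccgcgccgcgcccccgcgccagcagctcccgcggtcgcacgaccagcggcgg

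These windows held 12 CpG dinucleotides in *Dnm3*, 16 in *Sh3gl3*, 28 in *Dnm1* and 34 in *Sh3gl2*, against a median of 7 over the 32851 windows of the table. GGGCGG or its reverse was found once in *Sh3gl3* and in *Dnm1* and at 2 places in *Sh3gl2*, and 35.7% of all windows held it. CAGCTG was found once in *Sh3gl3* and in *Sh3gl2*, and 16.3% of all windows held it. TGGGAA, the core letters of the Ikaros family that includes the OHC factor Ikzf2, was found on neither strand of these 4 windows and in 25.6% of all windows. Such a match is a string of letters and not a measured binding site.

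The question of which retrieval genes separate the hair cell types was tested by edgeR (quasi-likelihood test, Benjamini-Hochberg adjustment over all genes) on UMI sums of OHC-like and IHC-like cells in the 3 libraries. Higher in OHC-like cells were *Sh3gl3*, with 6.18 as log2 fold change (SE 0.22, adjusted p = 3.39e-07), *Dnm3* with 4.98 (SE 0.46, adjusted p = 3.46e-05) and *Sh3gl1* with 1.02 (SE 0.20, adjusted p = 0.00351). *Dnm1* was higher in IHC-like cells, with -2.75 (SE 0.20, adjusted p = 7.81e-06), as were *Sh3gl2* with -2.46 (SE 0.18, adjusted p = 8.29e-06) and *Bin1* with -1.81 (SE 0.17, adjusted p = 3.10e-05). Each of these 6 differences had the same direction in 3 of 3 libraries. In all, 6 of the 9 genes passed (3 in each direction), where 33.8% of the 9481 genes tested passed (16.7% higher and 17.1% lower in OHC-like cells). *Amph* (-0.73, SE 0.26, adjusted p = 0.0528), *Dnm2* (0.20, SE 0.21, adjusted p = 0.505) and *Synj1* (-0.12, SE 0.22, adjusted p = 0.728) did not pass. *Amph* did pass in 7 alternatives, with log2 fold changes from -1.29 (thinned cells, adjusted p = 0.017) to -0.40 (without P14 replicate 1, adjusted p = 0.0346). Without P28 replicate 1, 4 genes passed, and without P28 replicate 2, 3 did, namely *Sh3gl3*, *Dnm1* and *Sh3gl2*, and *Dnm3* then had 4.63 (adjusted p = 0.0893). In comparisons of 3 libraries, here and below, leaving out 1 library also took the library term out of the fit. The 2 effects on a lost call were not told apart. *Sh3gl1* did not pass with cells of at most 3000 genes (0.77, adjusted p = 0.103) or with cells thinned to equal depth (0.89, adjusted p = 0.0987).

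RNA of one hair cell type in barcodes of the other can set a low level, so the same ratio was taken for defining markers. The IHC-like level was 0.477%, 1.59% and 1.85% of the OHC-like level for *Ocm*. The other OHC markers differed from it, with at most 0.257% for *Slc26a5*, 1.47% to 2.92% for *Lbh* and 3.36% to 13.9% for *Strip2*. For *Sh3gl3* the ratio was 1.05%, 1.36% and 1.95%. For *Dnm3* it was 10.2% at P14 and 0.817% and 3.90% at P28. Both lay within the span of these markers, whose upper end was set by *Strip2* alone. Summed over all 7 listed OHC markers, IHC-like cells held 448, 485 and 579 CPM. OHC-like cells held 38051, 24042 and 24157 CPM of them. The *Dnm3* ratio was above that of the summed OHC markers at P14 and in P28 replicate 2 and below it in P28 replicate 1. The *Sh3gl3* ratio was below it in each library. In the other direction, the OHC-like level of *Slc17a8*, the vesicular glutamate transporter of IHCs, was 1.01%, 4.66% and 4.12% of the IHC-like level, and that of *Otof* was 2.11%, 16.1% and 14.9%. For *Dnm1* it was 10.2%, 18.7% and 12.2%, above both of these markers at P14 and in P28 replicate 1 and between them in P28 replicate 2. Summed over all 7 listed IHC markers, OHC-like cells held 2237, 2031 and 1972 CPM. IHC-like cells held 12431.5, 10435 and 10644 CPM of these markers. The share of the summed markers was thus larger than that of *Dnm1* in each library. The part of such RNA in these low levels was not tested further.

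Against other cells, both hair cell classes held more of most retrieval genes. In OHC-like cells 6 of the 9 genes were higher and 0 lower by edgeR (0 lower also at an unadjusted p under 0.05 and by DESeq2), where 61.8% of 12938 genes passed, 24.1% higher and 37.7% lower. They were *Dnm3* (log2 fold change 6.62, SE 0.39, adjusted p = 0.00028), *Sh3gl3* (6.41, SE 0.44, adjusted p = 0.000429), *Amph* (2.52, SE 0.16, adjusted p = 0.000344), *Dnm1* (2.39, SE 0.33, adjusted p = 0.00252), *Sh3gl1* (1.62, SE 0.14, adjusted p = 0.000735) and *Synj1* (0.94, SE 0.14, adjusted p = 0.00296). *Synj1* did not pass when either P28 library was left out (adjusted p = 0.114 and 0.0564). *Bin1* (0.29, SE 0.17, adjusted p = 0.191), *Dnm2* (0.46, SE 0.16, adjusted p = 0.0509) and *Sh3gl2* (-0.02, SE 0.19, adjusted p = 0.923) did not pass. *Dnm2* did pass in some alternatives, among them RLE normalization (0.55, adjusted p = 0.0317) and without P14 replicate 1 (0.72, adjusted p = 0.0039). *Bin1* passed without P14 replicate 1 (0.31, adjusted p = 0.0449) but was at -0.30 with cells of at most 3000 genes (adjusted p = 0.166).

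In IHC-like cells 7 of the 9 genes were higher than in other cells by edgeR and 0 lower (0 lower also at an unadjusted p under 0.05 and by DESeq2), where 45.5% of 12583 genes passed, 17.5% higher and 28% lower. The rise was largest for *Dnm1* (5.10, SE 0.35, adjusted p = 2.98e-06), followed by *Amph* (3.21, SE 0.28, adjusted p = 1.39e-05), *Sh3gl2* (2.40, SE 0.18, adjusted p = 6.06e-06) and *Bin1* (2.06, SE 0.19, adjusted p = 1.79e-05). These 4 also passed without P28 replicate 1 and without P28 replicate 2, whereas *Dnm3* (1.63, SE 0.42, adjusted p = 0.0105), *Synj1* (1.05, SE 0.23, adjusted p = 0.00395) and *Sh3gl1* (0.61, SE 0.20, adjusted p = 0.0309) passed in neither case. *Sh3gl1* also did not pass with DESeq2 (adjusted p = 0.0857), with at most 3000 genes (adjusted p = 0.212) or thinned (adjusted p = 0.339). Nor did *Synj1* with at most 3000 genes (adjusted p = 0.858). The *Dnm3* call rests on 18, 6 and 17 UMIs, at levels within the span of the OHC markers above, whose upper end was *Strip2*. Its ratio was above that of the summed OHC markers at P14 and in P28 replicate 2. In P28 replicate 1 *Dnm3* was at 6.19 CPM against 4.52 CPM in other cells. *Dnm2* and *Sh3gl3* did not pass (adjusted p = 0.418 and 0.579).

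SGN-like cells could be compared at P28 only, on 2 sums against 2. Against other cells all 9 genes passed, where 78.7% of 14932 genes did (36.2% higher and 42.5% lower). Higher were *Dnm3* (6.59, SE 0.15, adjusted p = 1.43e-09), *Dnm1* (6.39, SE 0.22, adjusted p = 1.36e-08), *Sh3gl2* (5.35, SE 0.13, adjusted p = 1.56e-09), *Amph* (4.53, SE 0.13, adjusted p = 4.27e-09), *Synj1* (3.87, SE 0.13, adjusted p = 1.17e-08) and *Bin1* (1.85, SE 0.11, adjusted p = 2.94e-07). Lower were *Sh3gl1* (-1.16, SE 0.15, adjusted p = 8.15e-05), *Sh3gl3* (-1.08, SE 0.34, adjusted p = 0.0152) and *Dnm2* (-0.40, SE 0.15, adjusted p = 0.0341). The direction of *Sh3gl3*, at 9 and 10 UMIs in SGN-like cells, turned with cells of at most 3000 genes (1.43, adjusted p = 0.0809) and with thinned cells (0.18, adjusted p = 0.852). At resolution 2 *Sh3gl3* did not pass (-0.69, adjusted p = 0.0721). *Dnm2* did not pass with DESeq2 (adjusted p = 0.11) or with no count filter (adjusted p = 0.074). It also did not pass with cells of at most 3000 genes (-0.24, adjusted p = 0.627) or with thinned cells (-0.77, adjusted p = 0.077).

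The 2 comparisons of SGN-like with hair cells share the SGN-like sums, and their values are given side by side. All 9 genes passed in both, where 72.2% of 12217 genes passed against OHC-like cells (37.5% higher, 34.7% lower) and 65.9% of 11753 genes against IHC-like cells (35.6% higher, 30.4% lower). *Sh3gl2* was higher in SGN-like cells by 5.40 (SE 0.13, adjusted p = 4.66e-13) against OHC-like and 2.84 (SE 0.11, adjusted p = 1.78e-14) against IHC-like cells. *Dnm1* was higher by 4.17 (SE 0.13, adjusted p = 5.72e-12) and 1.64 (SE 0.10, adjusted p = 2.41e-11), *Synj1* by 2.82 (SE 0.11, adjusted p = 4.04e-11) and 2.61 (SE 0.16, adjusted p = 3.51e-11) and *Amph* by 1.92 (SE 0.11, adjusted p = 1.79e-09) and 1.55 (SE 0.13, adjusted p = 1.83e-09). *Dnm3* differed in direction: it was lower than in OHC-like cells (-0.60, SE 0.09, adjusted p = 6.80e-05) and higher than in IHC-like cells (5.19, SE 0.24, adjusted p = 2.72e-13). *Bin1* did so too, higher than in OHC-like cells (1.62, SE 0.10, adjusted p = 7.41e-09) and lower than in IHC-like cells (-0.36, SE 0.11, adjusted p = 0.00601). *Sh3gl3* was lower by -8.11 (SE 0.15, adjusted p = 1.42e-13) and -1.99 (SE 0.48, adjusted p = 0.00113), and *Sh3gl1* and *Dnm2* were lower in both. With cells of at most 3000 genes, *Amph* (0.58, adjusted p = 0.0644) and *Dnm2* (-0.90, adjusted p = 0.0559) did not pass against OHC-like cells. With the same limit, 4 genes passed against IHC-like cells (*Dnm3*, *Sh3gl2* and *Synj1* higher, *Sh3gl1* lower), and *Dnm1* (0.45, adjusted p = 0.175), *Amph* (0.09, adjusted p = 0.889) and *Bin1* (-0.93, adjusted p = 0.0588) did not. *Amph* also did not pass against IHC-like cells when thinned to equal depth (0.77, adjusted p = 0.0591), nor *Dnm2* with DESeq2 (adjusted p = 0.096).

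**Figure D2:**
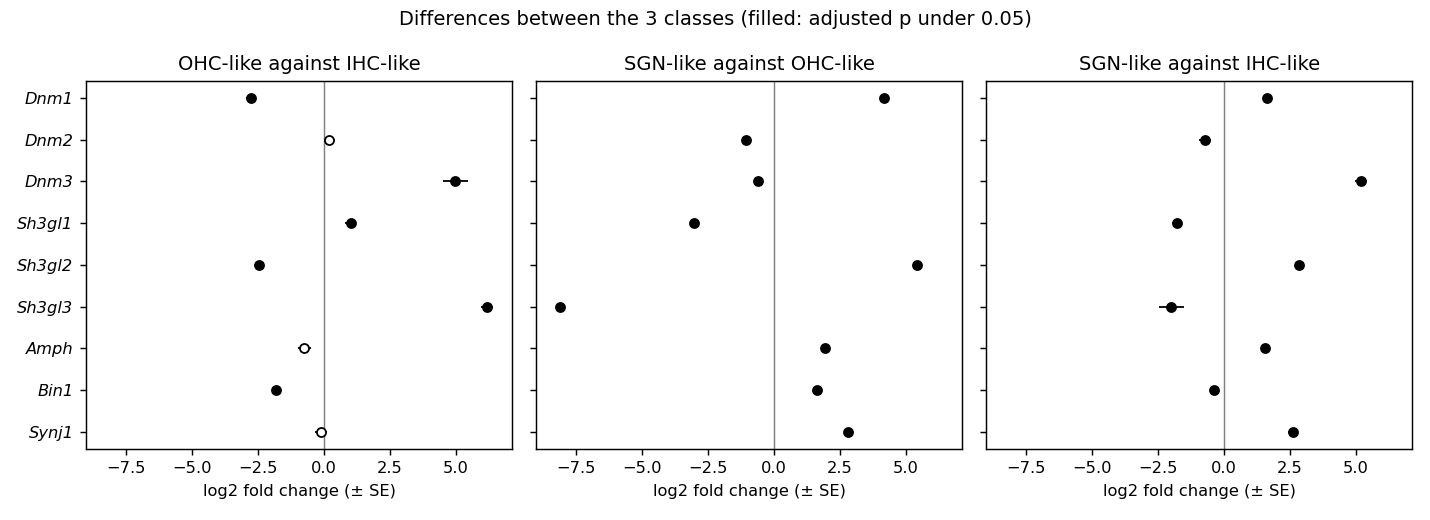
Log2 fold change (x axis) with a standard error derived from the F statistic (bars) of each of the 9 genes. Shown are OHC-like against IHC-like cells (3 libraries) and SGN-like against either hair cell class (2 libraries). Filled points passed an adjusted p of 0.05. *Sh3gl3* and *Dnm3* lie farthest to the right between the hair cell classes, and *Sh3gl3* lies farthest to the left between SGN-like and OHC-like cells, at -8.11.

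The amphiphysins bind dynamin and synaptojanin at the coated bud. *Amph*, amphiphysin 1 of neurons, was at 290 and 261 CPM in SGN-like cells, at 151, 97.0 and 104 CPM in IHC-like cells, and at 40.8, 71.5 and 67.7 CPM in OHC-like cells, in that order with no overlap between libraries. *Bin1*, the amphiphysin of muscle, neurons and immune cells, was at 305, 254 and 272 CPM in IHC-like cells, at 187 and 198 CPM in SGN-like cells and at 104, 59.4 and 60.5 CPM in OHC-like cells. It was high in macrophage-like cells too, with 283, 200 and 148 CPM in the 3 libraries, a range that overlapped the IHC-like one.

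*Synj1*, the main phosphatase of synaptic vesicle uncoating, was at 467 and 421 CPM in SGN-like cells. Hair cells held far less, 39.6, 57.8 and 106 CPM in IHC-like and 45.6, 59.0 and 61.9 CPM in OHC-like cells, whose ranges overlapped. Its paralog *Synj2*, taken from the list of clathrin endocytosis genes, was the lowest in SGN-like cells among the 3 classes. It was at 428 to 432 CPM in IHC-like cells, 305 to 314 CPM in OHC-like and, in SGN-like cells, 25.7 and 20.4 CPM. By edgeR it was higher in IHC-like than in other cells (3.89, SE 0.21, adjusted p = 7.78e-07). These values therefore do not show SGN-like cells to be lower than other cells. *Synj2* was lower in SGN-like cells, with log2 fold changes of -3.80 (SE 0.12, adjusted p = 4.69e-12) against OHC-like and -4.13 (SE 0.13, adjusted p = 9.69e-16) against IHC-like cells.

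**Figure D3:**
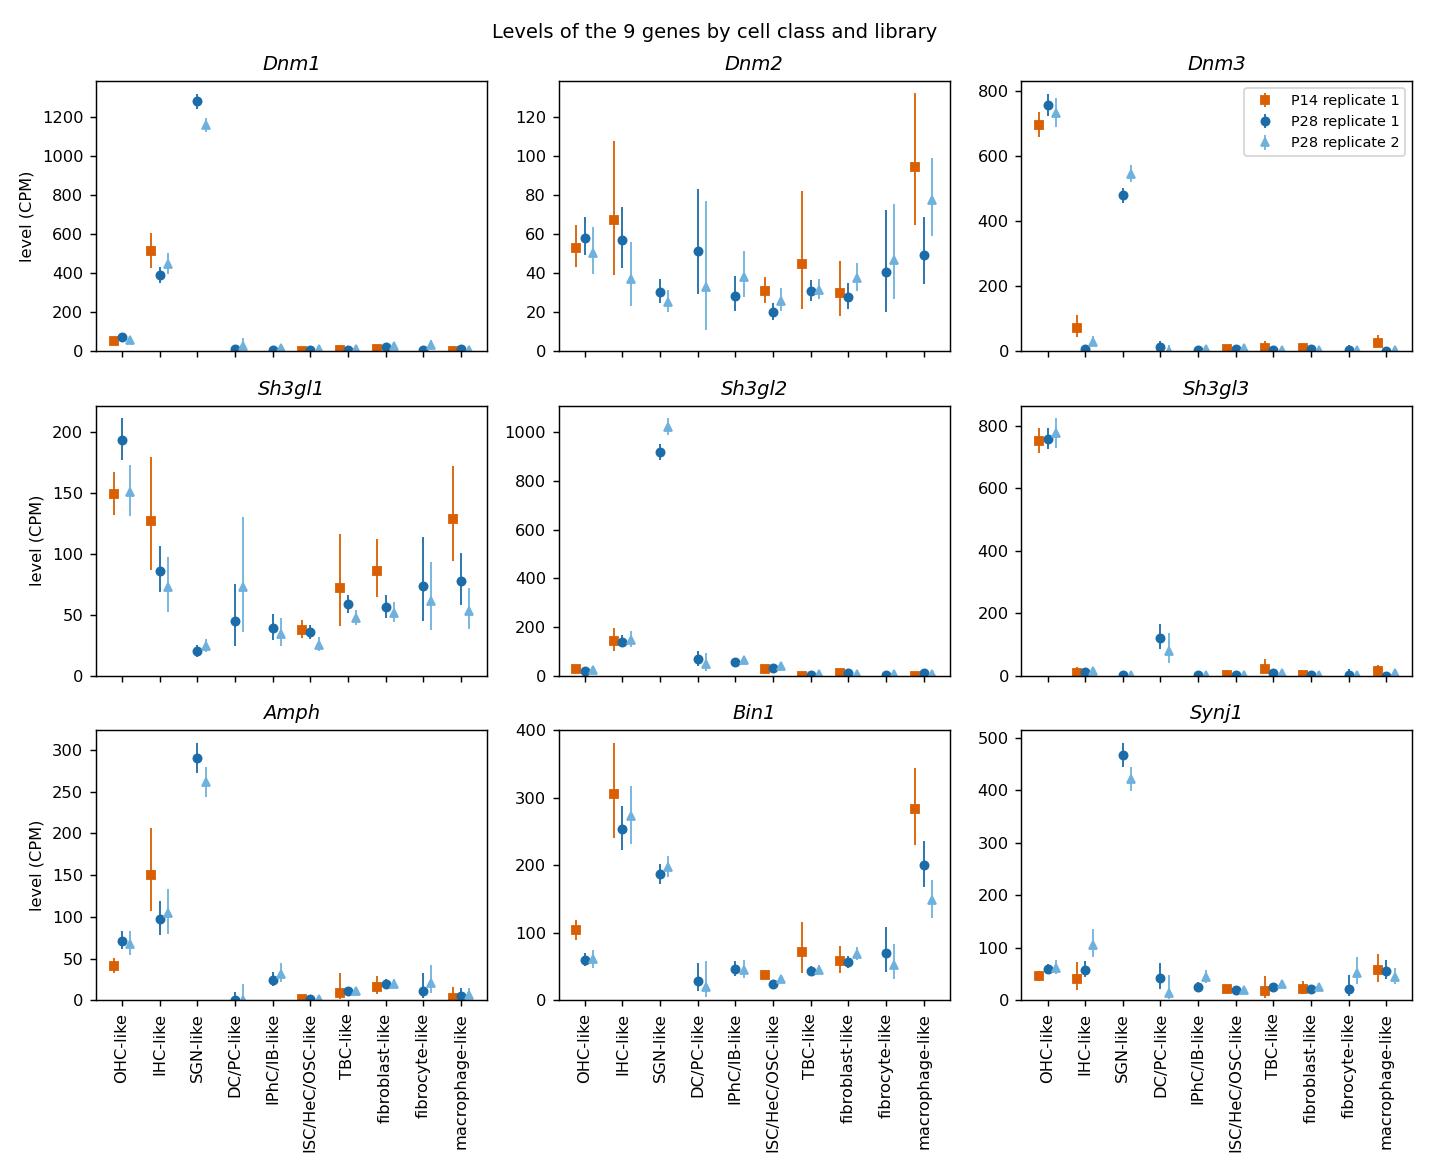
Level in CPM (y axis, from 0) of each of the 9 genes in 10 cell classes (x axis), with 1 point for each library of at least 10 cells and exact 95% Poisson intervals (counting error only). *Dnm3* and *Sh3gl3* stand out in OHC-like cells, *Dnm1*, *Sh3gl2*, *Amph* and *Synj1* in SGN-like cells, and *Bin1* in IHC-like, SGN-like and macrophage-like cells, while *Dnm2* reaches 94.2 CPM at most in these classes.

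Per cell the same division was seen at equal depth. With each cell thinned to 1000 UMIs, 52.1%, 52.6% and 47.5% of OHC-like cells had a *Dnm3* UMI and 54.1%, 47.9% and 56.0% a *Sh3gl3* UMI, against 0.421% to 1.49% and 0.421% to 1.29% of other cells. Before thinning 93.0% to 95.6% of OHC-like cells had a *Dnm3* UMI. In SGN-like cells 63.4% and 64.3% had a *Dnm1* UMI and 48.0% and 55.8% a *Sh3gl2* UMI. In IHC-like cells 25.8% (of 31 thinned cells), 46.5% and 30.6% had a *Dnm1* UMI. Shares in other cells were 0.496% to 2.07% for *Dnm1* and 1.68% to 2.25% for *Sh3gl2*, and the OHC-like share of *Sh3gl2*, 2.11% to 2.70%, was near that background. Thinning left out 0 to 17 OHC-like, 4 to 29 IHC-like and 2 to 28 SGN-like cells a library.

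Both *Dnm3* and *Sh3gl3* were found in the same OHC-like cells. Of the thinned cells with a *Sh3gl3* UMI, 57.1%, 55.4% and 50.9% also had a *Dnm3* UMI, against 43.2% to 50% of those without. In SGN-like cells *Dnm1* was found in 74.1% and 73.9% of the cells with a *Dnm3* UMI and in 57.6% and 57.7% of those without, so many SGN-like cells held both dynamins.

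**Figure D4:**
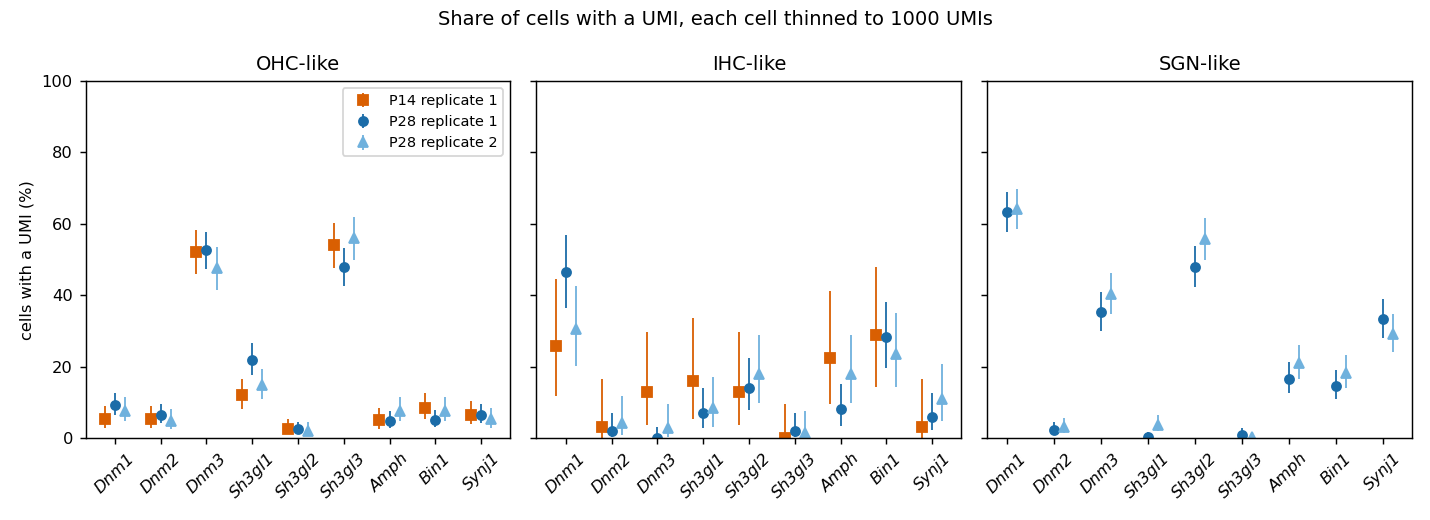
Share of cells (%) with at least 1 UMI of each gene after thinning each cell to 1000 UMIs, in OHC-like, IHC-like and SGN-like cells, with exact 95% binomial intervals. About as many OHC-like cells had a *Sh3gl3* UMI (47.9% to 56.0%) as a *Dnm3* UMI (47.5% to 52.6%), and both genes were near the bottom in IHC-like cells at P28.

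Within a class the levels varied between clusters. The 3 OHC-like clusters at P14 held 586 to 812 CPM of *Sh3gl3* and 624 to 1367 CPM of *Dnm3*, the latter highest in a cluster of 32 cells with a median of 929.5 UMIs and 17.6% of its UMIs from the nuclear RNA *Malat1*. The 2 OHC-like clusters at P28 held 658 to 888 CPM of *Dnm3* and 727 to 844 CPM of *Sh3gl3*. Among SGN-like clusters of at least 10 cells in a library, *Dnm1* ranged from 211 to 1355 CPM and *Sh3gl2* from 120 to 1080 CPM, both lowest in a cluster of 41 cells led by the non-coding RNAs *Meg3*, *Snhg11* and *Miat*.

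Outside the 3 classes *Sh3gl3* was found in supporting cells and in unnamed cells. Cells named DC/PC-like, after the Deiters' and pillar cells that hold the OHCs, had 121 CPM (exact 95% Poisson interval 85.9 to 167, 72 cells) in P28 replicate 1 and 79.1 CPM (40.9 to 138, 41 cells) in replicate 2. This was 16.0% and 10.2% of the OHC-like level, whereas *Ocm* in the same cells was at 1.22% and 0.0756% of its OHC-like level and *Dnm3* at 1.69% with 4 UMIs in replicate 1 and 0 UMIs in replicate 2. Against all barcodes outside the class, OHC-like cells among them, the log2 fold change of *Sh3gl3*, 0.76 (SE 0.33, adjusted p = 0.147), did not pass. At P14 an unnamed cluster of 75 cells led by *Fabp3*, *Tectb* and *Rbp7*, which also led the DC/PC-like cluster, held 103 CPM of *Sh3gl3* (75.7 to 138). Another unnamed P14 cluster, of 27 cells, held 373 CPM of *Sh3gl3* (248 to 540, 28 UMIs) and 80.0 CPM of *Dnm3* (6 UMIs). In other cells as a whole *Ocm* was at 152 CPM at P14 and at 27.8 and 19.1 CPM at P28. OHC markers were not compared in these unnamed clusters, and the part of OHC RNA in them was not tested.

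The other classes with sums in at least 2 libraries were each tested against all barcodes outside it, hair cells and SGN-like cells included, and 69 pairs of gene and class passed, all but 3 of them lower. Those barcodes hold the 3 classes in which most of these genes were high, so lower here does not mean lower than other cells. At P28 the mean *Sh3gl2* level was 158 CPM in all kept barcodes and 21.8 CPM in other cells. It was 61.8 CPM in IPhC/IB-like, 56.6 CPM in DC/PC-like and 5.19 CPM in TBC-like cells. Of the 9 genes, 8 passed in RM-like cells (Reissner's membrane), where 38.3% of all genes did, and 8 in macrophage-like cells, where 32% did. In TBC-like, ISC/HeC/OSC-like and IPhC/IB-like cells, a border and supporting cell group, 7 passed, beside 55.4%, 42.2% and 40.7% of all genes. In fibroblast-like, fibrocyte-like, DC/PC-like and SC/SGC-like cells 6 passed, beside 31.8%, 21.2%, 19.2% and 9.69%, and in granulocyte-like and red blood cell-like cells 4 passed, beside 22.5% and 2.26%. In bone cell-like cells 0 passed by edgeR and by DESeq2 (3 had an unadjusted p under 0.05 by edgeR), as did 0 of all genes by edgeR. Without P28 replicate 1, 6 pairs passed in all, and without P28 replicate 2, 14. These fits had no library term, and classes with sums in fewer than 2 of the libraries left had no test. The 3 higher pairs were in macrophage-like cells, where 15% of 13358 genes were higher: *Bin1* by 1.70 (SE 0.23, adjusted p = 0.00086), *Dnm2* by 1.19 (SE 0.22, adjusted p = 0.00399) and *Sh3gl1* by 0.66 (SE 0.21, adjusted p = 0.0403). The P14 macrophage-like cells held 16371 CPM of the 6 granulocyte markers beside 14370 CPM of the 6 macrophage markers, against 149 and 104 CPM of the former at P28, and those of P28 replicate 2 held 9297 CPM of red blood cell markers beside 8300 CPM of their own. Without the P14 library *Bin1* and *Dnm2* still passed and *Sh3gl1* (0.57, adjusted p = 0.0954) did not, and the part of the red blood cell RNA was not tested. Macrophages take up particles, and *Bin1* and *Dnm2* act in uptake outside nerve terminals as well. Uptake was not measured here, and its relation to these levels was not tested. *Dnm2* in macrophage-like cells was at 94.2, 49.3 and 77.2 CPM, and it made up 76.7% to 85.9% of their dynamin UMIs. Neither *Bin1* without P28 replicate 1 (adjusted p = 0.129) nor *Dnm2* without either P28 library (adjusted p = 0.151 and 0.188) nor thinned (adjusted p = 0.132) passed, and *Sh3gl1* passed in none of these cases. The *Sh3gl1* call was also lost with DESeq2 (adjusted p = 0.119), no count filter (0.11) and 10 UMIs in every sum (0.115). It was lost too with at most 3000 genes (adjusted p = 0.133), at resolution 2 (0.0546) and with no integration (0.0542). In order of the mean *Dnm2* level, macrophage-like, OHC-like and IHC-like cells came first, and each overlapped its neighbour.

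The *Dnm3* gene also holds, on its other strand, the non-coding RNA *Dnm3os* (chr1:162217623-162225550), the precursor of 2 microRNA hairpins. The hairpins lie within no *Dnm3* exon, and 3 of their mature forms are printed to show what the overlapping transcript carries, with the seed (bases 2 to 8) in capitals. The libraries capture polyadenylated RNA, so the mature microRNAs were not measured.
mmu-miR-199a-5p: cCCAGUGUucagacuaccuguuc
mmu-miR-199a-3p: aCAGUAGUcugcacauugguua
mmu-miR-214-3p: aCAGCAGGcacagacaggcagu

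These 3 lie within exons of *Dnm3os* at chr1:162217844-162217866, chr1:162217883-162217904 and chr1:162223438-162223459, on the plus strand. The other 2 dynamin genes likewise hold a hairpin of the miR-199 family on their other strand, Mir199b in *Dnm1* and Mir199a-1 in *Dnm2*. Fibrocyte-like cells held 121 and 102 CPM of *Dnm3os* at P28 on 33 and 35 UMIs. Bone cell-like cells overlapped them, with 32.5 CPM at P14 (5 UMIs) and 164 CPM in P28 replicate 2 (18 UMIs). TBC-like cells (tympanic border cells) held 22.4, 22.2 and 21.5 CPM. In SGN-like cells it had 0 UMIs, which allows up to 0.877 and 0.926 CPM (3 counts a library), and in OHC-like cells 3.22, 2.01 and 0.72 CPM. It was lower than in other cells in OHC-like (-2.59, SE 0.56, adjusted p = 0.0108) and IHC-like cells (-4.84, SE 0.78, adjusted p = 0.000734). Cell Ranger assigns a read to a gene on the same strand, so *Dnm3* and *Dnm3os* were counted apart.

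With 1 library at P14 the ages were not tested, and levels are compared by their exact 95% Poisson intervals, which cover counting error only. In OHC-like cells 7 of the 9 genes had a P14 interval that overlapped that of a P28 library. *Dnm3* was at 697 CPM at P14 against 746 ± 16.8 (SD, n = 2) at P28, and *Sh3gl3* at 751 against 768 ± 11.8. *Amph* was the 1 gene lower at P14, at 40.8 CPM (32.1 to 51.0) against 71.5 (61.3 to 82.8) and 67.7 (54.7 to 82.8). *Bin1* was the 1 gene higher at P14, at 104 CPM (89.4 to 119) against 59.4 (50.2 to 69.8) and 60.5 (48.2 to 74.9). The higher *Bin1* level lay in 1 P14 cluster of 54 cells, at 189 CPM (155 to 227), while the P14 cluster of 190 cells had 65.3 CPM (51.8 to 81.3) and overlapped P28. The P14 OHC-like cells held 2123 CPM of the 6 B cell markers, against 6.02 and 35.3 CPM at P28. Of these markers *Cd79a*, *Cd79b*, *Ms4a1* and *Vpreb3* were absent from the P14 OHC-like cells. P14 B cell-like cells held 206 CPM of *Bin1*. The part of B cell RNA in the P14 *Bin1* level was not tested. With cells thinned to equal depth neither gene lay outside the P28 intervals, and with cells of at most 3000 genes only *Amph* did.

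In IHC-like cells none of the 9 genes lay outside both P28 intervals. *Dnm1* was at 511 CPM (427 to 607) against 418 ± 41.3 (SD, n = 2), and *Sh3gl2* at 143 CPM (99.9 to 197) against 144 ± 5.42. *Dnm3* was at 71.3 CPM (42.3 to 113) against 6.19 (2.27 to 13.5) and 28.6 (16.7 to 45.8), so the P14 interval met that of replicate 2 alone. The 252424 UMIs of the P14 IHC-like cells set these wide intervals.

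**Figure D5:**
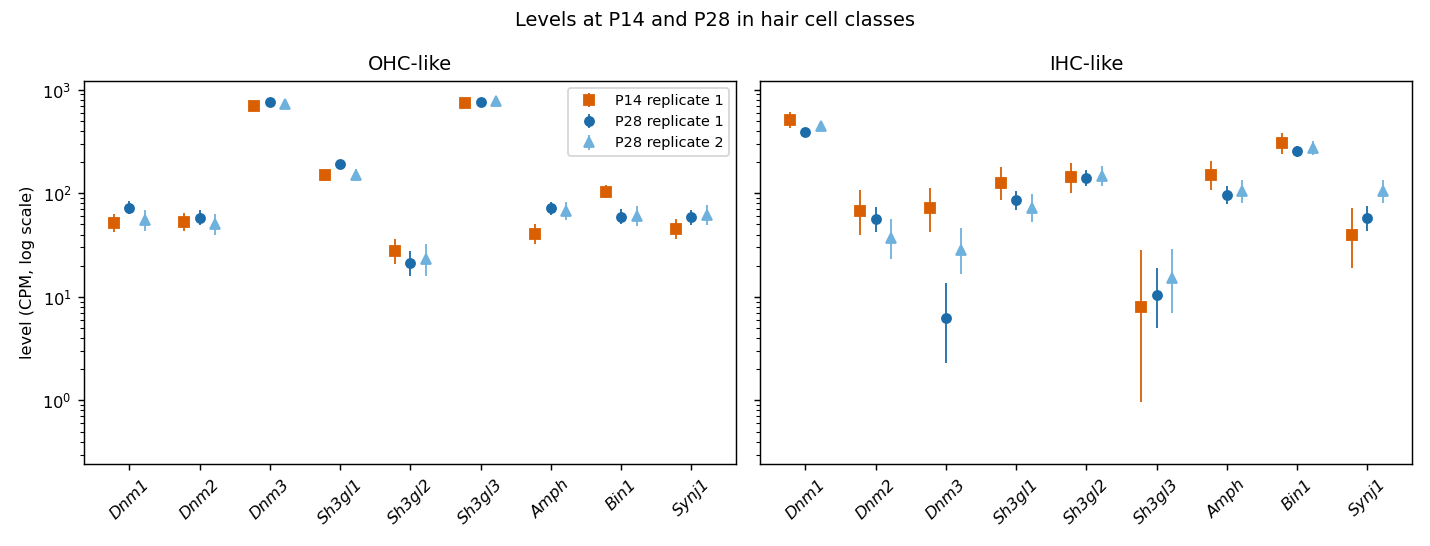
Level in CPM (y axis, log scale) of the 9 genes (x axis) in OHC-like (left) and IHC-like cells (right) in each library, with exact 95% Poisson intervals. In OHC-like cells *Dnm3* and *Sh3gl3* keep between 697 and 776 CPM in all 3 libraries, *Amph* is lower at P14 and *Bin1* higher at P14. In IHC-like cells the P14 intervals are wide.

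Of the other clathrin endocytosis genes, a list of 58 with the adaptors, coat proteins and uncoating factors, 51 were tested between OHC-like and IHC-like cells. Of these 10 were higher in OHC-like and 13 in IHC-like cells, beside 16.7% and 17.1% of the 9481 genes tested. The median log2 fold change of the list was 0.04 against 0.05 over all genes tested. Among those higher in OHC-like cells were *Epn3*, an epsin that bends the coated membrane (2.28, SE 0.19, adjusted p = 1.85e-05), *Dnajc6*, the neuronal auxilin that removes clathrin (1.51, SE 0.18, adjusted p = 0.000157), and *Ap2a2*, a subunit of the AP-2 adaptor (1.38, SE 0.16, adjusted p = 0.000156). Among those higher in IHC-like cells were *Hip1*, which links clathrin to actin (-2.16, SE 0.25, adjusted p = 0.00015), and *Pacsin2*, a dynamin-binding syndapin (-1.54, SE 0.31, adjusted p = 0.00403).

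Against other cells *Snap91*, the AP180 that sizes synaptic vesicles, was the list gene with the largest rise in each of the 3 classes, with log2 fold changes of 6.23 in OHC-like, 6.02 in IHC-like and 6.42 in SGN-like cells. Its levels were 415 to 663 CPM, 515 to 592 CPM and 608 to 649 CPM there and 6.4 to 7.1 CPM in other cells. In IHC-like cells the list genes *Ston1* (-8.51, SE 1.86, 264 UMIs over all sums) and *Dab2* (-7.50, SE 0.50, 3411 UMIs) were lower. The size of such a drop rests on few or no UMIs in IHC-like cells, so it was not ranked against the rise of *Snap91*. Of the 58 genes, 28 were higher and 23 lower in OHC-like, 17 and 13 in IHC-like, and 32 and 20 in SGN-like cells. The shares over all genes were 24.1% (higher) and 37.7% (lower) in OHC-like, 17.5% and 28% in IHC-like, and 36.2% and 42.5% in SGN-like cells. The list had medians of 0.43, 0.32 and 0.55 against -0.22, -0.23 and -0.15 over all genes tested. Of the 7 other dynamin-related genes found (*Mx1* and *Mx2* were not in the feature tables), 3, 2 and 6 were higher and 2, 1 and 1 lower in OHC-like, IHC-like and SGN-like cells, beside the same shares of all genes. *Atl1*, an atlastin of neuronal endoplasmic reticulum, was at 135 and 149 CPM in SGN-like cells against 1.1 to 11.9 CPM in hair cells.

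Over 40 sums of 1 class in 1 library, which share libraries and differ in depth, the gene most like *Dnm3* in level was *Faim2* (Pearson r = 0.93), that most like *Dnm1* was *Camk2n2* (0.94), and that most like *Sh3gl2* was *Rab3c* (0.91), by log2(CPM + 10) over 9947 genes. *Sh3gl3* was most like *Ankrd22* (0.91), *Amph* most like *Kif5c* (0.92) and *Synj1* most like *Ywhag* (0.88). *Sh3gl1* was most like *Jmjd1c* (0.84), *Bin1* most like *Pip5k1c* (0.79), a kinase that makes the lipid that synaptojanin breaks down, and *Dnm2* most like *Tfe3* (0.74). Among the 9 genes *Dnm1* and *Amph* were the most alike pair (0.90), *Dnm3* and *Sh3gl3* had 0.65, and *Sh3gl1* and *Sh3gl2* the lowest r (-0.05).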

How the data were processed

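The deposited files hold raw UMI counts per gene and barcode, which the authors made from 10x 3′ (v3.1) reads. The matrix headers name Cell Ranger 5.0.1 and the submitters' processing notes Cell Ranger 6.0.1 and mm10, and which applies was not resolved. Everything after this was computed here. The 9 genes and the gene lists were chosen with earlier results of these data known.

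Barcodes with 200 to 6000 genes and at most 15% mitochondrial UMIs were kept. P14 cells alone, and P28 cells after anchor integration, were clustered in Seurat 5.3.0 (R 4.3.3; 2000 variable genes without the 75 listed genes, 30 principal components, resolution 1). A cluster was named from lists for 23 cell types where at least 3 markers reached a log2 ratio of 1 to the median cluster and 5% of its cells, unless markers of another type outnumbered its own among its 10 leading genes or, with fewer than 4 markers passed, equalled them. Red blood cells also had to hold a marker that is no globin, and a further condition on another type is not reported here. The automatic doublet caller marked 4, 0 and 0 barcodes and so did not work. No cell was removed as a doublet, and the 5% with the highest score were left out as an alternative.

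UMIs were summed per class and library. Tests used edgeR 4.0.16 (quasi-likelihood, TMM, filterByExpr, Benjamini-Hochberg, threshold 0.05), with a library term for 3 libraries and none for 2; the 9 genes passed the filter in each main comparison. Classes of a library come from the same mice, which pairs them. Their deviations correlated by 0.363 to 0.518 (OHC-like with IHC-like), 0.287 to 0.374 (OHC-like with other cells), 0.192 to 0.257 (IHC-like with other cells) and 0.0408 to 0.125 (SGN-like). The SE beside an edgeR log2 fold change was not estimated separately. It is the size of the fitted log2 coefficient divided by the square root of the quasi-likelihood F statistic. The p-values rest on few pooled libraries. With a library term they measure the spread of the class difference between libraries. Without it they measure the spread between the sums of a class. Simulated data with 200 genes changed 4-fold gave back 187 (OHC-like against IHC-like) and 173 (IHC-like against other cells), with 6 and 13 false calls. These counts were drawn at a common mean and the fitted dispersion, with no library effect. They do not show how the test does with the shared deviations above.

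CPM are relative to all UMIs of a class in a library. Intervals are exact at 95% and cover counting error only, and 0 UMIs allow 3 counts. From the lists, the text names genes among those that passed and ranked in the top 5 by log2 fold change, up or down, with the same direction in every library and at least 30 UMIs. The alternatives were RLE normalization, DESeq2 1.42.0, other count filters (none, or 10 UMIs in every sum), the block, each library left out, at most 3000 genes and 15000 UMIs, 30% mitochondrial UMIs, resolution 2, 20 components, no integration, and thinning to 1000 UMIs. Positions and promoters came from RefSeq tables (GRCm38.p6), in which 9 and 8 of the 9 genes were found, and exons from GENCODE. Python 3.11.15 was used with scanpy 1.11.5, pandas 2.3.3, scipy 1.17.1, numpy 2.4.6 and matplotlib 3.10.9.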

Additional observations from a re-analysis of the deposited data

Results flagged for a closer look

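For *Dnm2* the log2 ratio of OHC-like over IHC-like level (1 CPM added) was -0.34 at P14 and 0.04 and 0.44 in the P28 libraries, on 408 UMIs. The P14 IHC-like level, 67.3 CPM, rested on 17 UMIs, and its interval (39.2 to 108) held the P14 OHC-like level of 53.1 CPM. The sign at P14 is thus within counting error, and the difference between the ages was not tested.

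*Sh3gl3* in IHC-like over other cells had log2 ratios of -1.08 at P14 and 0.63 and 1.49 at P28, on 21 UMIs in IHC-like cells. This difference was not tested either.

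Barcodes with over 6000 genes were outside every comparison. They held 785 CPM of the 9 genes together at P14 (25 barcodes, exact 95% Poisson interval 732 to 840), 1786 CPM in P28 replicate 1 (76 barcodes, 1730 to 1843) and 754 CPM in P28 replicate 2 (3 barcodes, 586 to 956), against 246, 208 and 218 CPM in other cells. In the 76 barcodes *Dnm1* was at 562 CPM, *Sh3gl2* at 451 CPM, *Dnm3* at 241 CPM and *Sh3gl3* at 8.77 CPM.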

How the results depend on the processing

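Of the values of single genes under an alternative, 717 kept direction and side of the threshold, 49 lost a call, 13 gained one and 18 reversed. The reversed values belonged to 5 genes. *Sh3gl2* in OHC-like against other cells, at -0.02, became 0.0688 with RLE, 0.0710 with DESeq2, 0.0648 with no count filter, 0.147 at resolution 2, 0.0419 when thinned, and 0.0294 to 0.126 with a library left out. *Sh3gl3* in IHC-like against other cells became -0.0108 without the replicate block and ranged from -0.625 to 0.937 with a library left out, and in SGN-like against other cells 1.43 with at most 3000 genes and 0.18 when thinned. Synj1 OHC-like against IHC-like cells became 0.685 with at most 3000 genes and ranged from -0.349 to 0.218 with a library left out, *Dnm2* there became -0.0403 with at most 3000 genes and, in IHC-like against other cells, -0.90 when thinned, and *Bin1* in OHC-like against other cells -0.30 with at most 3000 genes. The cause was not tested.

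Library pairing was also tried both ways. With the replicate block dropped, 6, 6 and 5 of the 9 genes passed (OHC-like against IHC-like, OHC-like and IHC-like against other cells). *Dnm3* (adjusted p = 0.133) and *Sh3gl1* (adjusted p = 0.11) then no longer passed in IHC-like cells, nor did *Sh3gl1* in macrophage-like cells (adjusted p = 0.243), and over all genes 1681 in place of 3207 passed between OHC-like and IHC-like cells. With the replicate block added, all 9 passed in each of the 3 comparisons of SGN-like cells, and it changed no other call among the 9 genes there. Over other classes 61 pairs passed with the block dropped where the main comparison had it and added where it did not. This count mixes both changes, so it does not give the pairs that pass without the block.

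Leaving out a library gave 3 to 7 genes for OHC-like against IHC-like, 4 to 7 for IHC-like against other cells and 6 to 71 pairs for the single classes. These fits had no library term. The share of all genes that passed is not set beside the counts under these alternatives. A loss over the whole test therefore cannot be told from a loss of these genes alone. The 69 pairs became 14 with 10 UMIs in every sum and 45 with at most 3000 genes, where SGN-like against IHC-like cells gave 4. At this limit fewer cells, and 3398 genes, entered that test. For the ages, the 2 genes outside in OHC-like cells became 1 with at most 3000 genes, 1 with 30% mitochondrial UMIs, 1 at resolution 2 and 0 when thinned. The 0 in IHC-like cells became 1 with 30% mitochondrial UMIs (*Dnm3*) and, in alternatives chosen after the data were seen, 1 without P28 replicate 1 (*Synj1*) and 1 without P28 replicate 2 (*Dnm3*). Depth limits *Sh3gl3* in IHC-like cells, with 21 UMIs in 3 libraries. SGN-like cells without either P28 library would leave 1 sum against 1, so no such value was had.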
